A study of Mus musculus and Homo sapiens with 67 samples.

Results

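The genes described here are 35 mouse genes of macrophages and other myeloid cells, measured in KPC pancreatic tumours. They were chosen by symbol from the 55335 genes of the tumour expression table, by a rule that used no measured value. Earlier results of these data were known when the genes were chosen. They fall into 8 groups by known role: leucocyte and signalling genes, core macrophage genes, adhesion and homing receptors, Fc receptors, C1q chains, scavenger receptors, lipid and matrix genes, and resident macrophage genes. Of the 35, 34 reached 1 FPKM (mapped fragments scaled to transcript length and library size) in at least 4 of 16 tumours and were tested. Marco, a scavenger receptor, did not, and its values lay between 0.09 and 4.32 FPKM.

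Tumours of KPC mouse pancreatic cancer cells were grown in the pancreas and the RNA of the whole tumour was sequenced. The 4 arms held 4 tumours each: RMC-6236 with tazemetostat (the combination), RMC-6236 alone, tazemetostat alone, and vehicle as the control. RMC-6236 blocks RAS proteins in their GTP-bound, signalling state, and tazemetostat inhibits EZH2, the histone H3 lysine 27 methyltransferase of the polycomb repressive complex. KPC names a genetically engineered mouse model of pancreatic cancer. The tumour columns name the line KPC1199. The labels give no dose, duration, host strain, age or sex, and do not say that each tumour is a separate animal, so p-values measure the spread between these samples. Cultured KPC cells, with 3 libraries in each of the same 4 arms and DMSO as the control, show what cancer cells express without a host. Their labels do not say whether they are the same line as the tumours.

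Macrophages are phagocytes that arise from blood monocytes or from cells seeded in the tissue before birth, and they are abundant in pancreatic tumours. Monocytes enter tumours through the chemokine receptor CCR2, and macrophages survive on colony-stimulating factor 1, which signals through the receptor encoded by Csf1r. In the tissue they take up dead cells, lipid and opsonised material through complement C1q, Fc receptors, scavenger receptors and TREM2.

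In cultured KPC cells, 29 of the 35 genes failed the filter of 1 FPKM in 3 libraries, and 28 of those 29 stayed under 0.5 FPKM in each of the 12 libraries. The other was Pf4, which codes for the chemokine platelet factor 4, with 0.218 to 1.35 FPKM. The 12 genes listed at 0 in every cell library were Tyrobp, Sirpa, Adgre1, Ms4a7, Ms4a6c, Itgax, Cx3cr1, Fcgr1, C1qa, C1qb, C1qc and Marco. In control tumours 33 of the 35 averaged 1 FPKM or more. The 6 genes that passed the filter in the cells were Cd68, Cd14, Mrc1, Apoe, Spp1 and Gpnmb, and they are described in both settings.

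Depth is unknown, because FPKM keep no read totals, and precision is read from the spread between tumours. Each tumour had 12386 to 13414 genes at 1 FPKM or more, and mitochondrial genes took 9.67 to 12.4% of FPKM. As a check of RMC-6236 action, Dusp6, an ERK-induced phosphatase, averaged 7.005 ± 3.42 FPKM with the combination, 10.9 ± 5.11 with RMC-6236, 69.1 ± 8.61 with tazemetostat and 59.8 ± 6.20 in control tumours (SD, n = 4 each). Ezh2, the target of tazemetostat, averaged 6.57 ± 0.607 FPKM with tazemetostat and 5.41 ± 0.965 in control tumours (limma adjusted p = 0.664). RNA does not measure enzyme activity, so the action of tazemetostat in these tumours was not checked. Among the tested genes combination tumour 4 held the highest value of all 16 tumours for 24 of 34, and tazemetostat tumour 2 held the lowest for 21 of 34. Combination tumour 4 also had the largest share of acinar (exocrine pancreas) transcripts, 1.57% of FPKM, against 0.0453 to 0.571% in the other combination tumours and 0.00243 to 0.161% in the remaining 12. Main counts are also given without these libraries or with 1 tumour at a time left out.

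With RMC-6236 alone, 21 of the 34 tested genes rose and 0 fell relative to control (limma, Benjamini-Hochberg adjusted p under 0.05 over all genes tested). The background was high, since 20.3% of all 13545 tested genes rose in that comparison and 19.2% fell. The median log2 difference was 0.73 over the 34 genes and 0.01 over all tested genes. In 18 of the 34 the RMC-6236 tumours lay wholly above the control tumours, which was so for 17.7% of all tested genes. In RNA of a whole tumour, more cells of a type and more RNA per cell cannot be told apart. Of the 28 tested genes that failed the filter in KPC cells, 19 rose.

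With the combination, 29 of the 34 rose and 0 fell relative to the same control tumours, where 26.7% of all tested genes rose and 25.7% fell. The median log2 difference was 1.02 over the 34 genes and -0.0007 over all genes, and 27 of the 34 lay wholly above control, against 23.8% of all genes. Without combination tumour 4 and tazemetostat tumour 2, 29 again rose with the combination and 22 with RMC-6236. With tazemetostat alone, limma called 0 members and 0 genes of 13545 (0% of the background), and at an unadjusted p under 0.05 the counts were 0 members and 1023 genes. The median over the 34 was -0.02 with tazemetostat, and 16 of the 34 differences were positive. Without tazemetostat tumour 2 the sign changed for 12 of the 34. Aif1, Cd14, Fcgr1, Folr2, Itgax, Ms4a6c, Msr1, Pf4 and Spp1 passed the test with the combination and did not pass with RMC-6236, and for Arg1 it was the other way round. These comparisons share the control tumours, so the arms are also compared directly below. Markers of other cell types moved as well, and their part in the result was not tested. Those of fibroblasts and epithelial cancer cells are given here and most others below. The 14 fibroblast markers summed to 3485 to 4109 FPKM with the combination, 3151 to 4148 with RMC-6236, 634 to 1379 with tazemetostat and 895 to 1219.8 in control tumours. The 9 epithelial cancer cell markers summed to 909.5 to 1514 FPKM with the combination, 1565 to 2142 with RMC-6236, 2994 to 5448 with tazemetostat and 3345 to 4154 in control tumours.

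**Figure D1:**
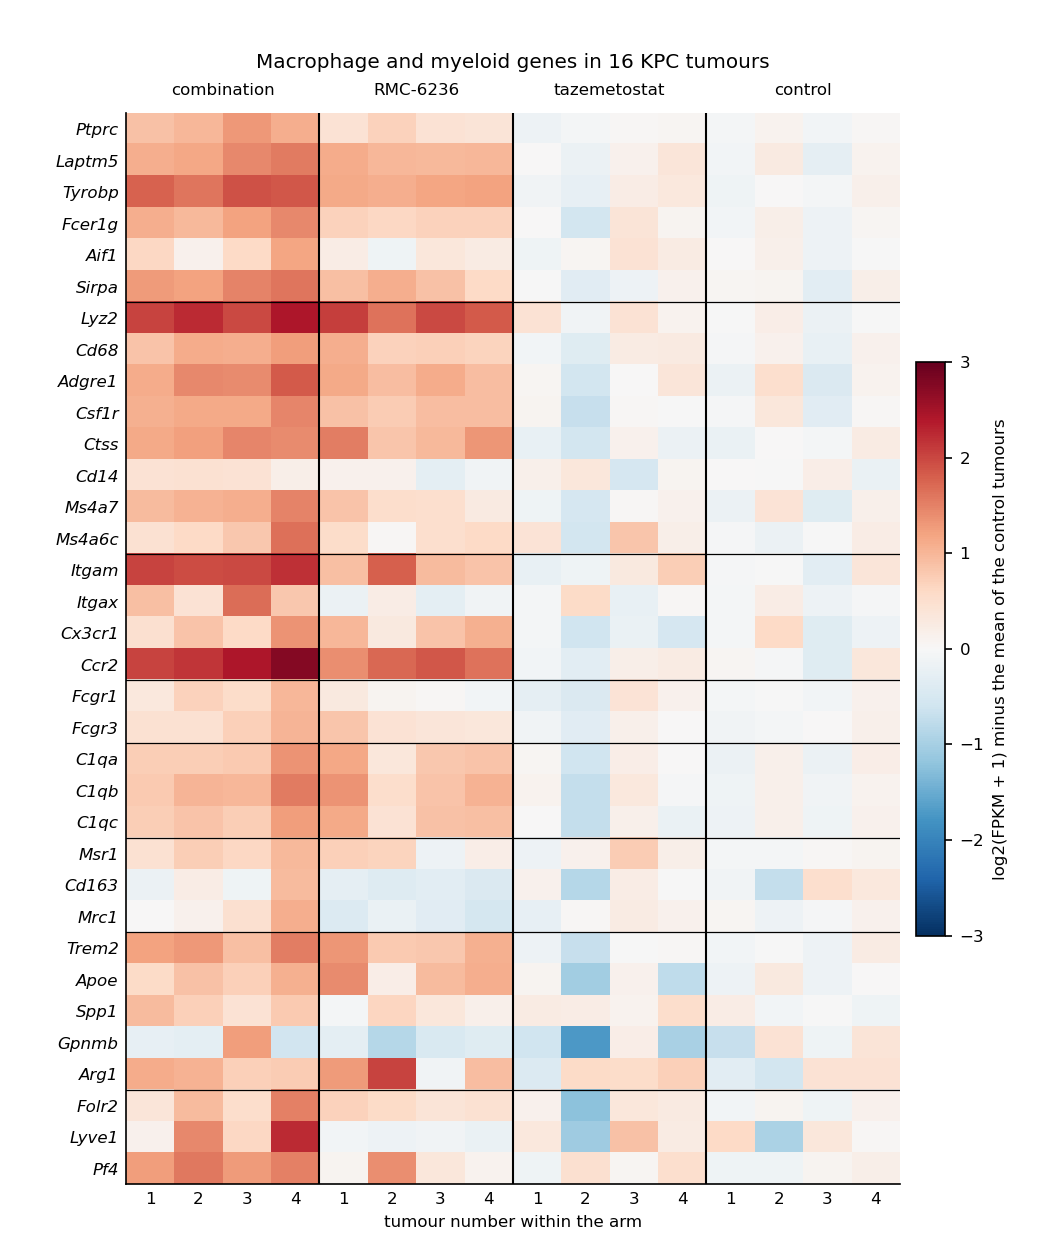
Each row is a gene and each column a tumour, with lines between the arms and between the groups of genes by role. Colour gives log2(FPKM + 1) minus the mean of the 4 control tumours. Combination tumours are red for most genes with tumour 4 the deepest, RMC-6236 tumours are paler, tazemetostat tumours are near 0 with tumour 2 in blue, and Cd163, Mrc1, Gpnmb, Lyve1, Cd14 and Itgax are the 6 genes whose log2 difference from control is below 0 in the RMC-6236 arm.

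Among the leucocyte and signalling genes, Tyrobp codes for DAP12, the adaptor that passes signals from TREM2 and related receptors. It measured 75.9, 67.5, 84.002 and 81.9 FPKM with the combination, 48.7, 46.9, 50.1 and 50.9 with RMC-6236, 20.04, 17.98, 25.3 and 27.2 with tazemetostat and 19.7, 21.96, 20.7 and 24.3 in control tumours. The 3 levels did not overlap: every combination tumour lay above every RMC-6236 tumour, and these above all tazemetostat and control tumours. On the log2 scale it rose by 1.79 ± 0.11 with the combination (adjusted p = 2.53e-08) and by 1.15 ± 0.11 with RMC-6236 (adjusted p = 3.84e-06), where ± is the standard error. Log2 differences throughout are of log2(FPKM + 1), which understates changes of low genes.

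Ptprc, the pan-leucocyte phosphatase CD45, measured 2.24, 2.497, 3.33 and 2.74 FPKM with the combination, 1.37, 1.81, 1.34 and 1.28 with RMC-6236, 0.569, 0.678, 0.783 and 0.814 with tazemetostat and 0.685, 0.883, 0.654 and 0.784 in control tumours. Its combination, RMC-6236 and control values again formed 3 separate ranges. It rose by 1.07 ± 0.10 with the combination (adjusted p = 5.56e-07) and by 0.48 ± 0.10 with RMC-6236 (adjusted p = 0.00131). All its control and tazemetostat values lay under 1 FPKM, so Ptprc passed the filter only through the arms with RMC-6236. Its calls are thus not independent of the filter, though they were kept with no filter. Laptm5, a lysosomal protein of blood cells, Fcer1g, the signalling chain shared by Fc receptors, and Sirpa, the receptor for the "do not eat me" signal CD47, rose in both comparisons. Their log2 differences with the combination were 1.31 ± 0.13, 1.17 ± 0.15 and 1.39 ± 0.13, and with RMC-6236 1.02 ± 0.13, 0.67 ± 0.15 and 0.87 ± 0.13, in that order. Aif1, the macrophage marker IBA1, rose with the combination (0.63 ± 0.18, adjusted p = 0.00873) and was not called with RMC-6236 (0.17 ± 0.18).

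Among the core macrophage genes Lyz2 changed most. It codes for lysozyme M, a bactericidal enzyme of monocytes, macrophages and neutrophils, and measured 1005, 1146, 960.3 and 1313 FPKM with the combination, 1026, 754, 959.9 and 873 with RMC-6236, 330.1, 228, 331 and 263 with tazemetostat and 242, 282, 215 and 242 in control tumours. Every tumour of both arms with RMC-6236 lay far above every tazemetostat and control tumour. The log2 differences were 2.17 ± 0.14 with the combination (adjusted p = 3.35e-08) and 1.87 ± 0.14 with RMC-6236 (adjusted p = 4.56e-07), and Lyz2 did not exceed 0.39 FPKM in any KPC cell library. Between the combination and RMC-6236 the ranges of Lyz2 overlapped (0.29 ± 0.14, not called).

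Csf1r, the receptor for macrophage growth factor, measured 31.5, 33.3, 33.3 and 42.1 FPKM with the combination, 27.5, 25.3, 28.4 and 28.4 with RMC-6236, 15.5, 8.55, 14.9 and 14.4 with tazemetostat and 14.04, 18.7, 11.2 and 14.98 in control tumours. Both arms with RMC-6236 lay wholly above the other 2 arms. Adgre1, the macrophage surface protein F4/80, averaged 17.8 ± 4.01 FPKM with the combination, 12.8 ± 1.13 with RMC-6236, 5.799 ± 1.68 with tazemetostat and 5.96 ± 1.97 in control tumours (SD, n = 4 each). It rose by 1.45 ± 0.21 with the combination and by 1.03 ± 0.21 with RMC-6236. Ctss, the lysosomal protease cathepsin S, and Cd68, a lysosomal membrane protein, also rose in both, by 1.32 ± 0.16 and 1.08 ± 0.14 with the combination and by 1.17 ± 0.16 and 0.80 ± 0.14 with RMC-6236.

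The other core genes were Ms4a7 and Ms4a6c, of the MS4A family of membrane proteins, and Cd14. Ms4a7 rose by 1.15 ± 0.18 with the combination and by 0.54 ± 0.18 with RMC-6236, where its ranges overlapped and the call was lost without any 1 of 4 libraries (RMC-6236 tumours 1 and 3, control tumours 1 and 3). Ms4a6c rose with the combination (0.88 ± 0.27, adjusted p = 0.0146) and was not called with RMC-6236 (0.43 ± 0.27). Cd14, the co-receptor for bacterial lipopolysaccharide, measured 41.9, 42.97, 42.3 and 35.1 FPKM with the combination, 33.7, 33.7, 25.2 and 28.6 with RMC-6236, 34.3, 39.5, 21.6 and 32.7 with tazemetostat and 31.2, 30.8, 35.3 and 26.7 in control tumours. Its combination values lay above those of RMC-6236 and overlapped those of control, since tumour 4 lay just under control tumour 3. The log2 difference from control was 0.38 ± 0.15 with the combination (adjusted p = 0.0443), a call lost in 9 of the 16 fits that left out 1 tumour.

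**Figure D2:**
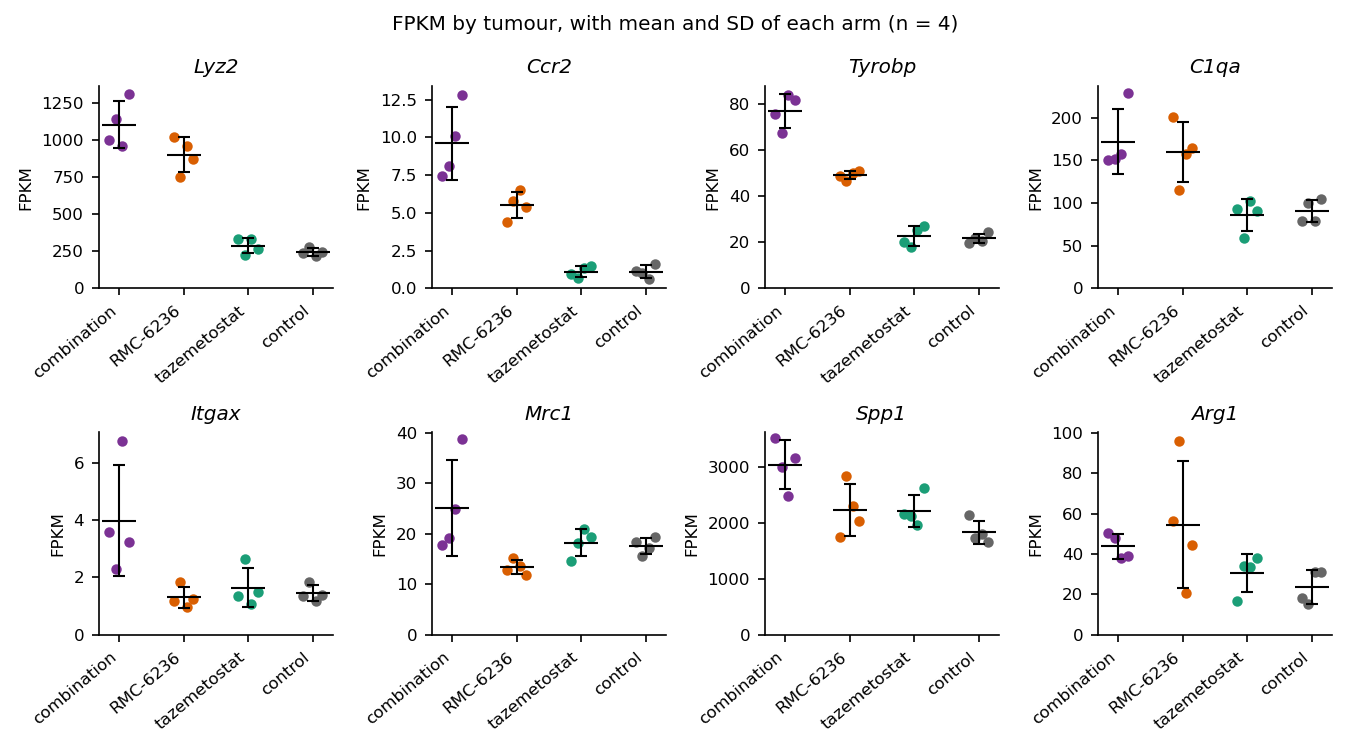
FPKM of 8 genes, with 1 point per tumour and the mean with its SD for each arm of 4. Lyz2, Ccr2 and Tyrobp are separate from control in both arms with RMC-6236, C1qa is also separate from control in both while its combination and RMC-6236 values overlap each other, Itgax is above control with the combination, Mrc1 is lowest with RMC-6236 alone, and the RMC-6236 values of Arg1 span 20.9 to 96.3 FPKM.

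All 4 adhesion and homing receptors rose with the combination and 3 of 4 with RMC-6236, where 26.7% and 20.3% of all tested genes rose. Ccr2, the receptor by which monocytes follow CCL2 out of the blood, measured 7.45, 8.09, 10.1 and 12.8 FPKM with the combination, 4.39, 5.79, 6.49 and 5.35 with RMC-6236, 0.949, 0.661, 1.32 and 1.44 with tazemetostat and 1.16, 0.997, 0.601 and 1.61 in control tumours. All 8 tumours of the 2 arms with RMC-6236 lay above all others. The log2 differences were 2.34 ± 0.18 with the combination (adjusted p = 1.3e-07) and 1.65 ± 0.18 with RMC-6236 (adjusted p = 1.02e-05). Itgam, the integrin CD11b of monocytes, macrophages and neutrophils, measured 30.8, 29.2, 29.6 and 34.6 FPKM with the combination, 13.5, 25.8, 14.04 and 13.1 with RMC-6236, 5.61, 6.13, 8.47 and 11.997 with tazemetostat and 6.55, 6.65, 5.23 and 8.999 in control tumours. The control values lay below those of both arms with RMC-6236, and RMC-6236 tumour 2 stood far above the other 3 of its arm. Itgam rose by 2.04 ± 0.23 with the combination (adjusted p = 4.64e-06) and 1.13 ± 0.23 with RMC-6236 (adjusted p = 0.00137). Neutrophils also express Itgam, and the 12 neutrophil markers summed to 65.5 to 252 FPKM with the combination, 34.6 to 65.02 with RMC-6236, 25.5 to 71.6 with tazemetostat and 26.9 to 61.4 in control tumours. Their part in the result was not tested.

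Cx3cr1, the receptor for fractalkine, averaged 8.59 ± 2.71 FPKM with the combination, 8.37 ± 2.05 with RMC-6236, 3.21 ± 0.761 with tazemetostat and 4.44 ± 1.73 in control tumours. Its ranges overlapped with control, where tumour 2 reached 6.96 FPKM, and it rose by 0.83 ± 0.23 with the combination (adjusted p = 0.00817) and 0.80 ± 0.23 with RMC-6236 (adjusted p = 0.0139). Itgax, the integrin CD11c of dendritic cells and some macrophages, measured 3.58, 2.31, 6.77 and 3.23 FPKM with the combination, 1.17, 1.84, 0.979 and 1.25 with RMC-6236, 1.35, 2.63, 1.08 and 1.505 with tazemetostat and 1.35, 1.85, 1.19 and 1.39 in control tumours. The combination lay above control (0.96 ± 0.22, adjusted p = 0.00222), and RMC-6236 overlapped it (-0.09 ± 0.22, not called).

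Of the Fc receptors, which bind antibody-coated particles, Fcgr3 rose with the combination (0.67 ± 0.14) and with RMC-6236 (0.49 ± 0.14), wholly above control in both. Fcgr1, the high-affinity receptor for IgG, averaged 5.19 ± 1.25 FPKM with the combination, 3.17 ± 0.4597 with RMC-6236, 2.92 ± 1.04 with tazemetostat and 2.93 ± 0.276 in control tumours. It rose with the combination (0.64 ± 0.17, adjusted p = 0.00505) and was not called with RMC-6236 (0.08 ± 0.17).

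The 3 chains of C1q, the recognition subunit of the classical complement pathway, rose together. C1qa measured 149.7, 151, 157 and 228 FPKM with the combination, 201, 115, 158 and 164 with RMC-6236, 92.9, 59.03, 102 and 90.4 with tazemetostat and 79.3, 99.8, 79.01 and 104 in control tumours. C1qb measured 141, 166, 162 and 241 FPKM with the combination, 209, 117, 149 and 168 with RMC-6236, 87.3, 49.3, 101 and 79.5 with tazemetostat and 74.4, 90.1, 74.9 and 86.96 in control tumours. C1qc measured 71.6, 77.8, 71.8 and 103 FPKM with the combination, 94.8, 57.8, 78.3 and 80.4 with RMC-6236, 42.7, 25.3, 47.6 and 36.9 with tazemetostat and 38.2, 47.2, 38.8 and 46.4 in control tumours. For all 3 chains both arms with RMC-6236 lay above both other arms, the highest combination tumour was tumour 4, and the highest RMC-6236 tumour was tumour 1. The log2 differences of C1qa, C1qb and C1qc were 0.90 ± 0.19, 1.09 ± 0.22 and 0.90 ± 0.18 with the combination and 0.79 ± 0.19, 0.94 ± 0.22 and 0.84 ± 0.18 with RMC-6236. Between the combination and RMC-6236 none of the 3 was called (0.11 ± 0.19, 0.15 ± 0.22 and 0.06 ± 0.18), and these small differences changed sign without combination tumour 4.

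The C1q genes lie next to each other on mouse chromosome 4, in the order C1qb, C1qc, C1qa in RefSeq for GRCm38.p6. The promoters of C1qb and C1qc are shown because these neighbours moved together, with that of Trem2, which rose beside them, and that of Mrc1, which did not pass the test with RMC-6236. Each is the 250 bases before the annotated start, 5′ to 3′ on the gene's strand. Capitals mark GAGGAA, or TTCCTC where it lies on the other strand, the core of the binding motif of PU.1, the transcription factor encoded by Spi1.
C1qb, chr4:136886201-136886450, minus strand: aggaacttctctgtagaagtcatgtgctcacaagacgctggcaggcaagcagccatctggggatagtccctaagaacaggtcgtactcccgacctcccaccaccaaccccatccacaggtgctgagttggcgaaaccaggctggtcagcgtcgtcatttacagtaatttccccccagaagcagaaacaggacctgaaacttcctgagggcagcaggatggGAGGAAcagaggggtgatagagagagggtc
C1qc, chr4:136892915-136893164, minus strand: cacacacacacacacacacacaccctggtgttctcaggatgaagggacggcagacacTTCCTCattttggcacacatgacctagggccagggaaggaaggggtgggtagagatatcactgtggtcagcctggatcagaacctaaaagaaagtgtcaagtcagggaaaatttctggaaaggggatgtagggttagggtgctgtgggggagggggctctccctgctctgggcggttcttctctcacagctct
Trem2, chr17:48346151-48346400, plus strand: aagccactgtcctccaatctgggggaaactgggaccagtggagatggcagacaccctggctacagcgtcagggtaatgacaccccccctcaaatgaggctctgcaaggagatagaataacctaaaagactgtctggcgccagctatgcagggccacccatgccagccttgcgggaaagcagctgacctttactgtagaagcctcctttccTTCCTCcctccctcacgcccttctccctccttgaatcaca
Mrc1, chr2:14229164-14229413, plus strand: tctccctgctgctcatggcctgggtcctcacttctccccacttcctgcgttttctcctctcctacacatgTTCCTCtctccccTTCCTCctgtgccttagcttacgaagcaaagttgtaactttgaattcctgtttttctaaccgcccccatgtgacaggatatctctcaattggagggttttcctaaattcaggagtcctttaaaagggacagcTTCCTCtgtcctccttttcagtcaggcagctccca
RefSeq windows were matched for 26 of the 35 genes, 33 windows in all because some genes have several starts. The motif, searched on both strands without other motifs, was found in 18 of the 33 (54.5%) and in 23.3% of all 32851 mouse promoter windows of the same length. By gene, 16 of the 26 held it, since overlapping windows of a gene, such as those of Fcgr3, were counted separately above. Mrc1 held 3 copies and the other 3 printed windows 1 each. The windows of Lyz2 and Ccr2, the members that rose most with RMC-6236, held 0, as did those of Fcer1g and Cx3cr1. A match describes the letters only, and no binding was measured.

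Of the 3 tested scavenger receptors 0 rose with RMC-6236 and 1 rose with the combination, where 20.3% and 26.7% of all tested genes rose. For 3 genes these counts are near those shares. Mrc1, the mannose receptor CD206 of alternatively activated macrophages, measured 17.8, 19.2, 24.9 and 38.7 FPKM with the combination, 12.9, 15.2, 13.6 and 11.8 with RMC-6236, 14.6, 18.1, 20.9 and 19.3 with tazemetostat and 18.3, 15.5, 17.2 and 19.3 in control tumours. Every RMC-6236 tumour lay below every control tumour, the only member of which this was so (19.2% of all genes), yet the difference of -0.37 ± 0.18 did not pass (adjusted p = 0.118). It passed as lower without combination tumour 4. Cultured KPC cells also expressed Mrc1, with 2.12, 2.32 and 2.04 FPKM with the combination, 2.15, 2.12 and 1.88 with RMC-6236, 23.1, 23.9 and 23.2 with tazemetostat and 10.9, 11.2 and 11.2 in control cells. In the cells Mrc1 fell by 1.94 with the combination and by 1.99 with RMC-6236 on the log2 scale, and rose by 1.01 ± 0.05 with tazemetostat.

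Cd163, the haemoglobin scavenger receptor, averaged 2.09 ± 1.23 FPKM with the combination, 0.984 ± 0.0906 with RMC-6236, 1.398 ± 0.696 with tazemetostat and 1.65 ± 0.899 in control tumours, and was not called in any comparison. Msr1, which takes up modified lipoproteins, rose with the combination (0.70 ± 0.20, adjusted p = 0.00784) and was not called with RMC-6236 (0.36 ± 0.20).

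Of the lipid and matrix genes Trem2, the lipid-sensing receptor of tissue macrophages, measured 8.29, 8.78, 6.496 and 10.7 FPKM with the combination, 8.98, 5.94, 5.98 and 7.399 with RMC-6236, 2.61, 1.49, 2.94 and 3.11 with tazemetostat and 2.81, 2.95, 2.596 and 3.74 in control tumours. Both arms with RMC-6236 lay above both others, and Trem2 rose by 1.24 ± 0.17 with the combination (adjusted p = 2.75e-05) and 0.997 ± 0.17 with RMC-6236 (adjusted p = 0.00039). Apoe, which carries lipid out of macrophages, measured 492, 606, 543 and 688 FPKM with the combination, 879.7, 374, 634 and 694 with RMC-6236, 344, 159, 356 and 193 with tazemetostat and 294, 399.8, 296 and 333 in control tumours. RMC-6236 tumour 2 fell inside the control range and the other 3 lay above it. Apoe rose by 0.81 ± 0.27 with the combination (adjusted p = 0.0216) and 0.91 ± 0.27 with RMC-6236 (adjusted p = 0.017). The first call was lost without combination tumour 4, control tumour 1 or control tumour 3, and the second without RMC-6236 tumour 1.

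Arg1, the arginase that marks immunosuppressive myeloid cells, measured 50.5, 47.9, 38.1 and 38.97 FPKM with the combination, 56.4, 96.3, 20.9 and 44.4 with RMC-6236, 16.9, 34.3, 33.7 and 38.1 with tazemetostat and 18.2, 15.2, 30.95 and 30.98 in control tumours. The RMC-6236 values ran from inside the control range (tumour 3) to far above it (tumour 2). Its call with RMC-6236 (1.03 ± 0.38, adjusted p = 0.0443) was lost in 12 of the 16 fits that left out 1 tumour, and the combination, wholly above control, was not called (0.91 ± 0.38, adjusted p = 0.0591).

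Spp1, osteopontin, was the most abundant of the 35 and ranked 13th of all genes in control tumours. It measured 3515, 2994, 2477 and 3158 FPKM with the combination, 1750.2, 2837, 2293 and 2033 with RMC-6236, 2152, 2124, 1957 and 2617 with tazemetostat and 2129, 1734, 1805 and 1654 in control tumours. The combination lay above control (0.73 ± 0.14, adjusted p = 0.000611), and RMC-6236 overlapped it (0.27 ± 0.14, not called). Cultured KPC cells measured 558, 565 and 547 FPKM with the combination, 312, 310.2 and 323 with RMC-6236, 1542, 1503 and 1586 with tazemetostat and 1104, 1136 and 1152 in control cells. Spp1 thus fell in the cells, by 1.02 with the combination and by 1.84 with RMC-6236, and was higher in combination tumours. The difference between tumours and cells was not tested, because the tables were normalised separately.

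Of the other members measured in both settings, Cd68 averaged 5.25 FPKM with the combination, 7.82 with RMC-6236, 2.62 with tazemetostat and 4.05 in control KPC cells, and Cd14 averaged 79.7, 64.9, 46.8 and 61.2 FPKM in the same order. In the cells Cd68 rose by 0.31 ± 0.06 with the combination and 0.80 ± 0.06 with RMC-6236, and fell with tazemetostat. Its tumour differences were 1.08 ± 0.14 and 0.80 ± 0.14. Cd14 rose in the cells by 0.38 ± 0.04 with the combination, was not called with RMC-6236 and fell with tazemetostat. The cancer cells' part in the tumour values was not tested. Gpnmb, a glycoprotein of lysosome-rich macrophages and melanocytes, averaged 176 ± 1.94 FPKM with the combination, 174 ± 3.14 with RMC-6236, 58.7 ± 2.08 with tazemetostat and 81.8 ± 1.65 in control cells (SD, n = 3 each). In the cells it rose by 1.10 ± 0.03 with the combination and 1.08 ± 0.03 with RMC-6236. In tumours Gpnmb averaged 9.22 ± 7.02 FPKM with the combination, 5.22 ± 0.9901 with RMC-6236, 4.68 ± 3.12 with tazemetostat and 8.1002 ± 3.06 in control, with overlap throughout and 0 calls. Apoe was near the filter in cells, at 1.45 FPKM with the combination, 1.302 with RMC-6236, 1.75 with tazemetostat and 2.04 in control. Over the 6 members in cells, 3 rose and 3 fell with the combination (background 37.8% and 38.7% of 12567 genes), 2 rose and 3 fell with RMC-6236 (37.9% and 35.8%), and 2 rose and 3 fell with tazemetostat (18.6% and 25.5%).

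**Figure D3:**
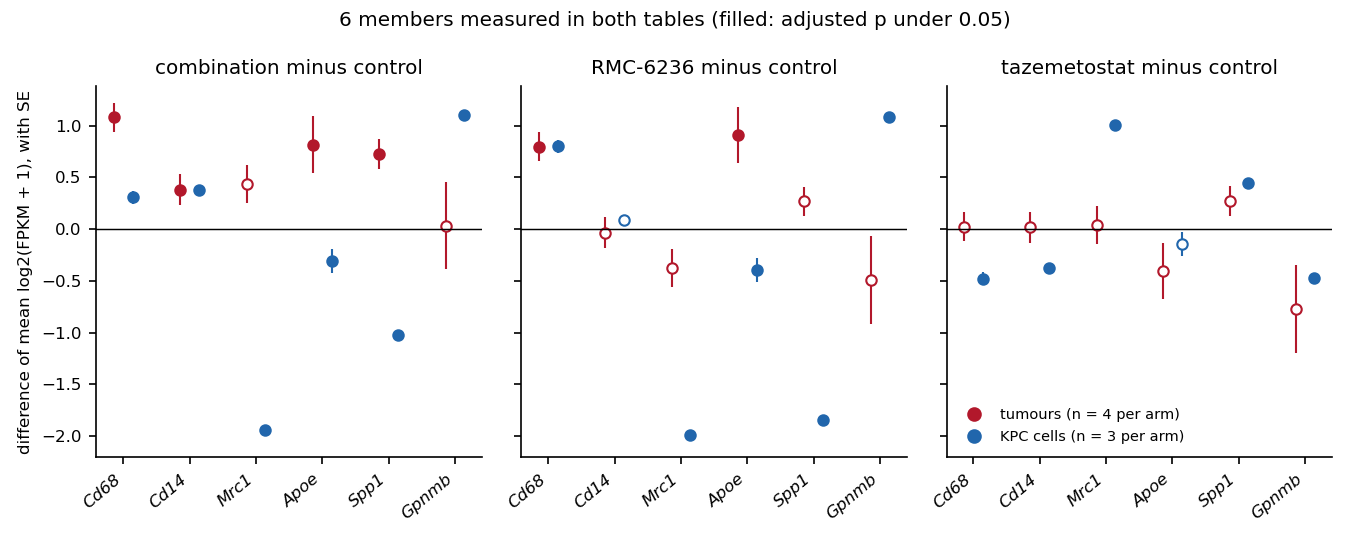
Log2 difference from control with its standard error for the 6 genes that passed the filter in tumours (red) and in KPC cells (blue), for the combination, RMC-6236 and tazemetostat. Filled points had an adjusted p under 0.05. Cd68 is positive in both settings under the combination and RMC-6236, Mrc1 and Spp1 are far below 0 in the cells under both, and Gpnmb is above 0 in the cells under both and near or below 0 in the tumours.

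The resident macrophage genes did not pass with RMC-6236 (0 of 3), where 20.3% of all tested genes rose. With the combination 2 of 3 rose, against 26.7% of all tested genes. Folr2, the folate receptor of perivascular resident macrophages, rose with the combination (0.84 ± 0.30, adjusted p = 0.0293), a call lost without combination tumour 2 or 4 or control tumour 1 or 3. With RMC-6236 it was not called (0.53 ± 0.30), though its 4 values of 5.10 to 6.61 FPKM lay above the control values of 3.27 to 4.11 FPKM. Pf4 measured 43.7, 54.7, 44.4 and 51.9 FPKM with the combination, 18.7, 48.02, 22.6 and 18.9 with RMC-6236, 16.04, 25.1, 18.3 and 25.3 with tazemetostat and 16.1, 16.1, 18.8 and 19.9 in control tumours. The combination lay above control (1.41 ± 0.24, adjusted p = 0.000201), and with RMC-6236 tumours 2 and 3 exceeded the highest control tumour. Platelets and their precursors also make platelet factor 4. The 5 erythroid markers, measured as a sign of blood, summed to 69.9 to 177 FPKM with the combination, 12.6 to 46.5 with RMC-6236, 25.4 to 46.2 with tazemetostat and 29.6 to 46.6 in control tumours. Lyve1, which resident macrophages share with lymphatic endothelium, spanned 2.06 to 12.4 FPKM with the combination against 0.457 to 3.25 FPKM in control tumours and was not called (1.11 ± 0.46, adjusted p = 0.0576). The 10 endothelial markers summed to 51.3 to 75.2 FPKM with the combination, 24.4 to 30.7 with RMC-6236, 21.5 to 24.99 with tazemetostat and 16.9 to 29.9 in control tumours. The part of blood and vessels in these values was not tested.

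**Figure D4:**
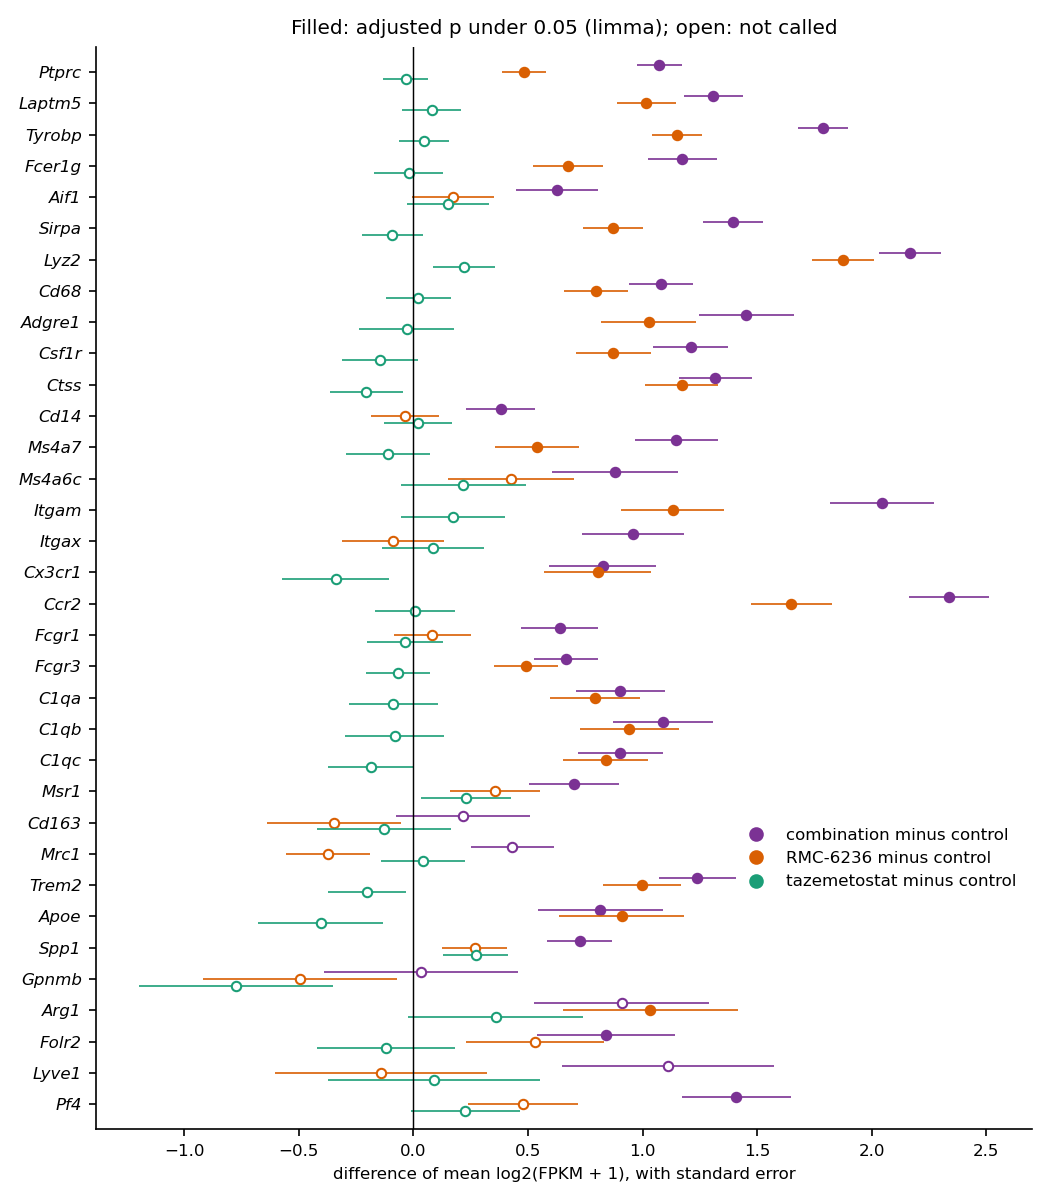
Log2 difference from control with its standard error for the 34 tested genes, under the combination (purple), RMC-6236 (orange) and tazemetostat (green). Filled points had an adjusted p under 0.05. The orange points reach 1.87 for Lyz2, the purple points reach 2.34 for Ccr2, and all green points are open.

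The combination was compared directly with RMC-6236 alone, which asks what adding tazemetostat did. Of the 34 genes 8 were higher with the combination and 0 lower, where 5.16% of all genes were higher and 2.97% lower. The 8 were Ptprc, Tyrobp, Sirpa, Itgam, Itgax, Ccr2, Mrc1 and Pf4. In 14 of the 34 the combination lay wholly above RMC-6236, which was so for 7.9% of all genes, and the median log2 difference was 0.44, against -0.005 over all genes. Itgax differed most of the 8, by 1.05 ± 0.22 (adjusted p = 0.00875), followed by Pf4 (0.93 ± 0.24), Itgam (0.91 ± 0.23), Mrc1 (0.81 ± 0.18) and Ccr2 (0.69 ± 0.18). Ptprc (0.59 ± 0.10, adjusted p = 0.00156) and Tyrobp (0.64 ± 0.11, adjusted p = 0.00208) had the smallest p-values. The count was 4 without combination tumour 4 or without RMC-6236 tumour 4, and the calls of Ccr2, Itgam, Pf4 and Sirpa were lost in both cases. Without combination tumour 4 and tazemetostat tumour 2 together it was 5. With all tumours in the fit, 0 of 8 core macrophage genes and 0 of 3 C1q chains passed. Of the Fc receptors 0 of 2 passed, and of the lipid and matrix genes 0 of 5. Of other cell types, 7 of 9 neutrophil, 9 of 9 endothelial and 6 of 13 fibroblast markers were higher. So were 4 of 4 erythroid and 15 of 19 acinar markers. The part of these cells in the result was not tested.

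Relative to tazemetostat alone, 26 of the 34 were higher with the combination and 0 lower, where 24.7% of all genes were higher and 26.3% lower. The interaction asks whether the combination differs from the sum of the single drugs on the log2 scale. It was called for 1 of the 34, where 1.86% of all genes were called: Ptprc was 0.63 ± 0.14 above the sum (adjusted p = 0.0298). Ptprc had passed the filter only through the arms with RMC-6236. Its call was lost without any 1 of 11 tumours and without combination tumour 4 and tazemetostat tumour 2 together. Without both, the interaction changed sign for 7 of the 34. The interaction of Tyrobp was 0.59 ± 0.15 and did not pass (adjusted p = 0.0656).

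The members did not keep their proportions to each other. Each gene was set over the summed FPKM of the leucocyte genes Ptprc, Laptm5, Tyrobp and Fcer1g of the same tumour, a sum that averaged 183 FPKM with the combination, 127 with RMC-6236, 67.5 with tazemetostat and 65.4 in control tumours. On this scale a gene of equal FPKM in both arms falls to 0.357 of control with the combination and to 0.511 with RMC-6236, and the median of all tested genes was 0.357 and 0.515. The other 30 tested members had medians of 0.738 with the combination and 0.875 with RMC-6236. Ccr2 stood at 3.14 times control with the combination and 2.62 with RMC-6236, and Lyz2 at 1.62 and 1.89. These were the 2 members wholly above control on this scale in both arms, joined by Itgam with the combination, where 2.08% of all genes were above with the combination and 1.08% with RMC-6236.

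At the other end, Mrc1 stood at 0.496 of control with the combination and 0.388 with RMC-6236, and Cd14 at 0.468 and 0.496. Cd163 stood at 0.429 and 0.297, in the same order, and overlapped control in both arms. Gpnmb stood at 0.409 with the combination, where it overlapped control, and at 0.337 with RMC-6236, where it lay wholly below. Wholly below control were 11 of 30 with the combination and 8 of 30 with RMC-6236, where 88% and 82.9% of all genes were. The C1q chains overlapped control on this scale with RMC-6236, at 0.905, 1.01 and 0.938 of control for C1qa, C1qb and C1qc, and were wholly below it with the combination, at 0.675, 0.772 and 0.679. These ratios are descriptions with no test, and Ptprc and Tyrobp themselves rose unequally.

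**Figure D5:**
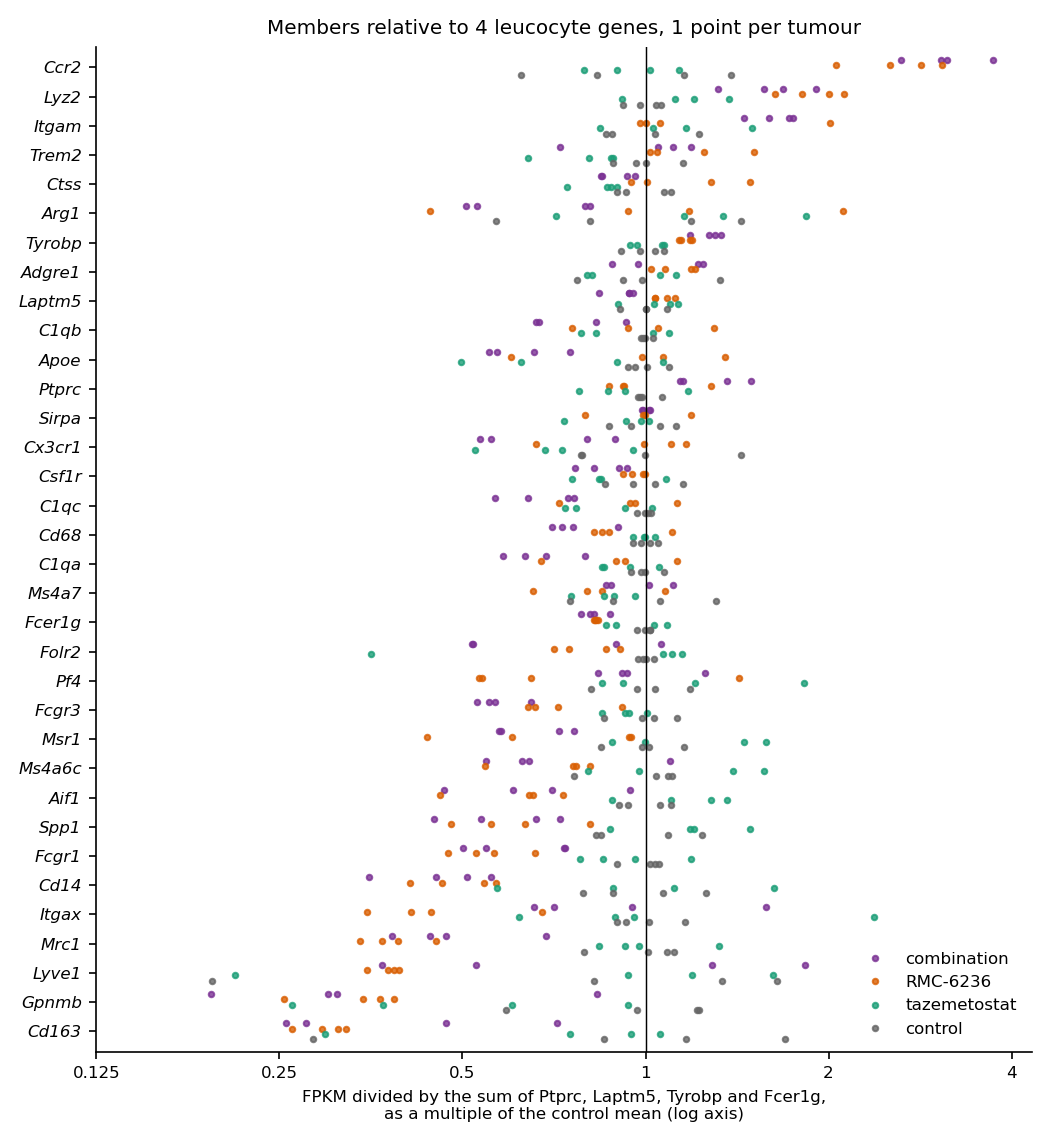
FPKM of each gene over the summed FPKM of Ptprc, Laptm5, Tyrobp and Fcer1g of the same tumour, as a multiple of the control mean, on a log axis. Points are single tumours, coloured by arm, and genes are ordered by their mean with RMC-6236. Ccr2 and Lyz2 lie to the right of 1 in all 8 tumours given RMC-6236, and Mrc1 and Cd14 to the left in all 8.

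Other genes of macrophage biology were followed through lists that hold none of the 35. All list counts are relative to control, and over all tested genes 26.7% rose and 25.7% fell with the combination and 20.3% rose and 19.2% fell with RMC-6236. Many genes of these lists, unlike most of the 35, were also expressed by cultured KPC cells, and the cells' part in the tumour values was not tested. Of the myeloid transcription factors 11 of 14 rose and 1 fell with the combination, and 9 rose and 1 fell with RMC-6236. In KPC cells, 6 of 9 tested rose and 2 fell with the combination, and 4 rose and 3 fell with RMC-6236. Spi1, which codes for PU.1, averaged 14.4 ± 1.82 FPKM with the combination, 10.1 ± 0.736 with RMC-6236, 4.79 ± 1.27 with tazemetostat and 4.54 ± 0.367 in control tumours (SD, n = 4 each). It rose by 1.47 ± 0.12 with the combination and 1.002 ± 0.12 with RMC-6236, and Cebpa and Maf, factors of myeloid and macrophage differentiation, rose by 1.09 ± 0.13 and 0.88 ± 0.13 with RMC-6236. In KPC cells Maf averaged 23.4 ± 0.981 FPKM with the combination, 24.8 ± 0.275 with RMC-6236, 3.03 ± 0.122 with tazemetostat and 6.62 ± 0.429 in control cells, a rise of 1.76 ± 0.05 with RMC-6236. Cebpa rose in the cells by 1.15 ± 0.10 with the combination and by 0.95 ± 0.10 with tazemetostat. It averaged 18.97 ± 1.76 FPKM there with the combination and 16.4 ± 1.26 with tazemetostat. With RMC-6236 it averaged 8.78 ± 0.731 FPKM, against 8.04 ± 1.19 in control cells.

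Of the lysosomal genes 12 of 15 rose with the combination and 12 with RMC-6236, among them Hexa (0.81 ± 0.11 with RMC-6236), a hexosaminidase chain, Psap (0.67 ± 0.07), the saposin precursor, and Ctsd (0.59 ± 0.11), cathepsin D. All 15 passed the filter in KPC cells, where 13 rose and 2 fell with the combination and 12 rose and 1 fell with RMC-6236. There Hexa rose by 0.99 ± 0.04 and Psap by 0.97 ± 0.02 with RMC-6236.

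Of the Fc receptor and TREM signalling genes 12 of 14 rose and 1 fell with the combination, and 10 rose and 1 fell with RMC-6236. Fgr, a SRC-family kinase of myeloid cells, averaged 5.78 ± 0.973 FPKM with the combination, 2.72 ± 0.378 with RMC-6236, 0.961 ± 0.279 with tazemetostat and 0.746 ± 0.134 in control tumours. Of the other complement genes 11 of 12 rose and 0 fell with the combination, and 9 rose and 1 fell with RMC-6236. C3ar1, the receptor for the C3a fragment, averaged 16.6 ± 1.87 FPKM with the combination, 12.9 ± 0.839 with RMC-6236, 4.32 ± 1.12 with tazemetostat and 4.42 ± 0.942 in control tumours. C3 averaged 157 ± 32.2 FPKM with the combination, 44.2 ± 18.7 with RMC-6236, 16.1 ± 7.796 with tazemetostat and 17.1 ± 9.64 in control tumours. In KPC cells C3 averaged 133 ± 2.705 FPKM with the combination, 62.9 ± 1.51 with RMC-6236, 19.1 ± 0.388 with tazemetostat and 21.02 ± 0.609 in control cells. It rose there by 2.61 ± 0.03 with the combination and 1.54 ± 0.03 with RMC-6236, and 6 of the 7 complement genes tested in the cells rose with the combination. Of the 12 genes in tumours 10 were higher with the combination than with RMC-6236, C3 by 1.89 ± 0.40 and Serping1, the C1 inhibitor, by 1.93 ± 0.34.

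Of the growth factors and chemokines that recruit macrophages 5 of 14 were higher and 3 lower with the combination, and 4 higher and 4 lower with RMC-6236, shares near those of all genes. Csf1 averaged 31.7 ± 9.298 FPKM with the combination, 21.9 ± 4.37 with RMC-6236, 10.3 ± 3.49 with tazemetostat and 10.6 ± 3.01 in control tumours, and rose by 0.99 ± 0.25 with RMC-6236. In KPC cells Csf1 averaged 59.4 ± 1.96 FPKM with the combination, 54.97 ± 0.904 with RMC-6236, 16.6 ± 0.269 with tazemetostat and 20.8 ± 0.823 in control cells (SD, n = 3 each), and rose by 1.36 ± 0.03 with RMC-6236. Ccl12, a ligand of CCR2, averaged 2.22 ± 2.46 FPKM with the combination, 1.44 ± 0.565 with RMC-6236, 12.1 ± 6.06 with tazemetostat and 11.4 ± 2.32 in control tumours. It fell by 2.36 with RMC-6236 on the log2 scale while Ccr2 rose. Ccl9 rose by 1.18 ± 0.22 with RMC-6236. In KPC cells Ccl12 was listed at 0 in every library. Ccl2, also a ligand of CCR2, rose there by 1.22 ± 0.04 with RMC-6236. It averaged 52.8 ± 0.823 FPKM with RMC-6236 and 22.2 ± 0.646 in control cells. Of the 7 genes of the list tested in the cells, 3 rose and 4 fell with RMC-6236.

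Of the lipid-laden macrophage genes 6 of 11 rose and 2 fell with the combination, and 5 rose and 2 fell with RMC-6236. The 4 adipocyte markers summed to 0.367 to 153 FPKM with the combination and 0.439 to 14.6 with RMC-6236. Their sums were 0 to 0.746 FPKM with tazemetostat and 0 to 0.675 in control tumours. The part of adipocytes in this list was not tested. Pparg, a fatty-acid-sensing nuclear receptor, averaged 2.94 ± 0.871 FPKM with the combination, 3.38 ± 0.745 with RMC-6236, 11.1 ± 1.203 with tazemetostat and 10.8 ± 0.611 in control tumours, against the direction of Abcg1 (1.004 ± 0.10 with RMC-6236) and Fabp5 (0.99 ± 0.11), a cholesterol exporter and a fatty-acid carrier. In KPC cells Pparg rose with RMC-6236, by 0.86 ± 0.04, and 6 of the 7 tested genes of the list rose. Of the alternatively activated genes 5 of 6 rose and 1 fell with the combination, and 2 rose and 1 fell with RMC-6236. The filter had removed 5 of the 11 genes of that list and 6 of the 13 inflammatory genes. Of the inflammatory genes 1 of 7 rose and 1 fell with the combination, and 0 rose and 1 fell with RMC-6236: Cxcl10, an interferon-induced chemokine, averaged 0.874 ± 0.361 FPKM with the combination, 0.446 ± 0.141 with RMC-6236, 4.77 ± 2.47 with tazemetostat and 4.21 ± 2.52 in control tumours. The 7 tested MHC class II genes all rose with the combination, with Cd74 at 115 ± 37.6 FPKM, 64.4 ± 14.1 with RMC-6236, 29.5 ± 8.02 with tazemetostat and 43.4 ± 10.9 in control, and 0 were called with RMC-6236. Of the resident genes outside the 35, 5 of 8 rose with the combination and 4 with RMC-6236, and of the monocyte genes 4 of 8 rose and 1 fell with the combination and 2 rose and 1 fell with RMC-6236. The inflammatory genes in both arms and the monocyte genes with RMC-6236 had shares of higher genes near or below that of all genes.

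Markers of other cell types were counted by the same test, against the same shares of all genes: 26.7% higher and 25.7% lower with the combination, and 20.3% higher and 19.2% lower with RMC-6236. Of the 9 tested neutrophil markers, 7 were higher with the combination and 0 were called with RMC-6236, each relative to control, and Ly6g, Camp and Ngp failed the filter. Of the 13 tested fibroblast markers 12 were higher with the combination and 9 with RMC-6236, and of the 9 epithelial cancer cell markers 6 were lower with the combination and 5 with RMC-6236. Of the 9 tested endothelial markers 9 were higher with the combination and 2 with RMC-6236. All 19 tested acinar markers and all 4 tested erythroid markers were higher with the combination, and 0 of either were called with RMC-6236. The 21 acinar markers summed to 130 to 4425 FPKM with the combination and 6.61 to 154 with RMC-6236. Their sums were 9.20 to 447 with tazemetostat and 19.1 to 76.1 in control tumours. The 7 B cell markers summed to 5.8001 to 123 FPKM with the combination, 3.21 to 313 with RMC-6236, 0.665 to 23.6 with tazemetostat and 0.665 to 26.7 in control tumours. The highest of these sums was in RMC-6236 tumour 2, the tumour of that arm with the highest Ptprc, Itgam, Arg1 and Pf4. Of T cell, natural killer cell, B cell and dendritic cell markers 2, 1, 2 and 1 passed the filter, and of all lists 1 gene, Clec4f, a lectin of liver macrophages, was listed at 0 in all tumours.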

How the data were processed

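RNA of 16 KPC orthotopic tumours and 12 KPC cell cultures was sequenced in 4 arms. The authors deposited FPKM per gene in 1 table for tumours and 1 for cells. Per the labels' protocols, RNA was extracted with RNAiso Plus and libraries were stranded, and per the submitters' processing notes StringTie 1.3.1c, STAR 2.5.3a and FastQC 0.11.2 were used. The mouse build, and whether counting used strand, are not given in the sources used here. FPKM keep no depth, so no interval from counts can be given. Of the 67 samples in the labels, the others, 15 subcutaneous tumours among them, were not analysed here.

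From the deposited FPKM, log2(FPKM + 1) was fitted with limma 3.58.1 in R 4.3.3, 1 mean per arm over all 4 arms, trended and robust eBayes, on genes at 1 FPKM or more in at least 4 tumours or 3 cell libraries, with Benjamini-Hochberg adjustment over all tested genes and a threshold of 0.05. The 2 tables were normalised separately and no test spans them. The fit was tested on simulated data. Figures used matplotlib 3.10.9 with Python 3.11.15. All 35 members are reported. From each other list up to 4 called genes with the largest change in a comparison could be named; Ly6g, Camp, Ngp and Clec4f, outside that rule, were named after their values were seen. Members and lists were chosen with earlier results of these data known. Alternatives tried were pseudocount 0.1, no filter, rescaling by the median ratio or without acinar and mitochondrial genes, eBayes without trend, only the compared arms, a replicate block, and leaving out libraries. Promoters came from RefSeq, GRCm38.p6. A result that needs a withheld item is not reported here.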

Additional observations from a re-analysis of the deposited data

Results flagged for a closer look

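Dixon's test was applied to 140 groups of 4 tumours, and 11 groups had 1 tumour far from the other 3. Chance gives about 1 in 20 such groups. Of these, 4 were RMC-6236 tumour 2: Ptprc, CD45, at 1.81 FPKM against 1.28 to 1.37 FPKM in the other tumours of the arm, Itgam, CD11b, at 25.8 FPKM against 13.1 to 14.04 FPKM, Pf4, platelet factor 4, at 48.02 FPKM against 18.7 to 22.6 FPKM, and Fcer1g, the Fc receptor chain, at 42.4 FPKM against 44.1 to 44.3 FPKM. A further 3 were RMC-6236 tumour 1: Laptm5 at 34.7 FPKM against 31.7 to 32.1 FPKM, Cd68 at 57.7 FPKM against 42.8 to 43.9 FPKM, and Fcgr3 at 44.3 FPKM against 30.9 to 33.2 FPKM.

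Combination tumour 4 had C1qa at 228 FPKM against 149.7 to 157 FPKM in the other tumours of the arm, and Cd14 at 35.1 FPKM against 41.9 to 42.97 FPKM. In combination tumour 3 Gpnmb reached 19.7 FPKM against 4.87 to 6.26 FPKM. In tazemetostat tumour 2 Csf1r measured 8.55 FPKM against 14.4 to 15.5 FPKM.

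Ptprc passed the test of interaction, at 0.63 on the log2 scale (limma adjusted p = 0.0298). It was 1 call among 34 members, where 1.86% of all genes were called. The call was lost in 11 of the 16 fits that left out 1 tumour, and with pseudocount 0.1. Ptprc passed the filter only through the arms with RMC-6236. Spp1 moved in opposite directions with the combination in tumours and in cultured KPC cells. All 4 combination tumours lay above all control tumours, by 0.73 on the log2 scale, and all 3 combination cell libraries lay below all control libraries, with a log2 difference of -1.02. The difference between the settings was not tested.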

How the results depend on the processing

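No called member reversed under any alternative run. With RMC-6236 against control the count of higher members was 19 to 21 when 1 tumour at a time was left out (21 with all), and 1 member, Mrc1, was called lower with only the compared arms in the fit and 1 without combination tumour 4 and tazemetostat tumour 2 (0 with all; 0 to 1 over the tumours left out). The combination against control gave 27 to 30 (29), against tazemetostat 25 to 30 (26), and against RMC-6236 4 to 11 (8), with 5 when both named tumours were left out, an alternative chosen after seeing the data. The interaction gave 0 with pseudocount 0.1, 2 with rescaling by the median ratio, 2 with the replicate block and 0 without both named tumours (1 with all; 0 to 2 over the tumours left out). Over all genes, the combination against RMC-6236 gave 657 to 1215 calls (1101; 723 without both) and the interaction 90 to 277 (252; 35 without both). In KPC cells with no filter, 6 members were lower with RMC-6236 (3 with the filter) and 7 higher with the combination (3). The fewer calls in fits without a tumour come with fewer samples, and other causes were not tested. Of 24 same-numbered pairs of tumours from different arms, 4 correlated above 0.1 (median -0.12, highest 0.34). Differently numbered pairs were not examined, so this cannot decide whether the numbers pair the tumours. The replicate block ended the call of Arg1 with RMC-6236 and changed no other called member there. Depth is unknown, and genes near 1 FPKM, such as Ptprc and Cd163, are limited by it.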
